A study of Homo sapiens with 24 samples.

Results

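The AlkB family comprises dioxygenases that remove methyl groups from nucleic acids or proteins. The transcripts of 9 family genes (ALKBH1 to ALKBH8 and FTO) were examined for N6-methyladenosine (m6A) of their own during human pancreatic differentiation. Members were chosen by name. A peak was assigned to a member when the gene identifier deposited for it included that member, which gave 99 peaks among 228472 in 6 lists. All 9 genes had a peak in at least 1 list, among the 27200 genes named in the lists.

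The samples were 24 libraries from the MEL1 human embryonic stem cell line, in 12 groups of 2. The study names it as MEL1 INSGFP/W, a line in which the endogenous insulin promoter drives GFP, and the sources used here name no other line for any group. Each of 6 populations had 2 libraries of RNA fragments precipitated with an m6A antibody (IP) and 2 of the fragments before precipitation (input). Batch 1 held pluripotent stem cells (hPSC) and, derived from them in order, definitive endoderm (DE), progenitors of the pancreas (PP) and islet-like organoids (hILO), with no edit of ALKBH5. Their mRNA was precipitated with an SYSY antibody. Batch 2 held wild-type progenitors (WT PP) and progenitors from hPSC in which indels had been made in the first exon of ALKBH5 by CRISPR-Cpf1 (A5-KO PP), a line grown from picked colonies. Here total RNA and a Millipore antibody were used, rRNA was depleted from the input, and another library kit was used. No time point beyond the stage is used here.

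The authors deposited 1 list of peaks for each population, called on its libraries together. Each peak carried pooled IP and input read counts and a log2 enrichment of IP over input. Values for single libraries were not analysed here, and therefore no difference between populations has a replicate check and no test was made. Errors given with ± and 95% intervals are counting errors from the pooled reads. They do not cover the variation between cultures, or copies of molecules made by PCR. The stage comparisons share lists, since DE and PP each stand in a pair of them. Batch and experiment cannot be told apart, so lists were compared within a batch only.

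AlkB enzymes use iron and alpha-ketoglutarate to oxidise a methyl group, which is then released. ALKBH5 and FTO are the members known to demethylate m6A in mRNA. ALKBH2 and ALKBH3 repair alkylated DNA bases, ALKBH1 and ALKBH8 act on tRNA, ALKBH4 has protein substrates, and ALKBH7 is mitochondrial. The m6A writers methylate adenosine within the motif DRACH, in which D stands for A, G or T, R for A or G and H for A, C or T, and often as GGAC. In mRNA the mark is known to gather in long exons and around stop codons.

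The family's peaks fell at 35 places, and 8 of these carried a peak in each of the 6 lists. They were the start of the ALKBH1 3UTR, exon 2 of ALKBH2, the ALKBH4 3UTR, exon 1 of ALKBH5, the ALKBH5 3UTR just after the stop codon and near its end, the ALKBH7 3UTR, and the last ALKBH8 exon around its stop codon. Of the other places, 16 had a peak in a single list. A GGAC site within the stretch covered by peaks of at least 4 lists is shown for 7 of the 8 places, from GRCh38, 5′ to 3′ on the transcript strand, with GGAC in capitals, because these are the letters beneath the family's most repeated peaks.
ALKBH1 3UTR, chr14:77673727-77673747, minus strand: attgccgtGGACttcagcacc
ALKBH2 exon 2, chr12:109092772-109092792, minus strand: gacaggatGGACagattcctg
ALKBH4 3UTR, chr7:102457151-102457171, minus strand: agtcttggGGACatgggatca
ALKBH5 exon 1, chr17:18184421-18184441, plus strand: tatcaggaGGACtcggacccc
ALKBH5 distal 3UTR, chr17:18209810-18209830, plus strand: tcaagtcgGGACtgcataatt
ALKBH7 3UTR, chr19:6375117-6375137, plus strand: ggctggctGGACacatggtca
ALKBH8 last exon, chr11:107504890-107504910, minus strand: tgttaacaGGACttcttttta
Each of the 7 windows is 21 nt long, and in each of them GGAC with the base after it also matches DRACH, so that the motifs overlap. Only the transcript strand was searched. The sites of ALKBH1, ALKBH5 exon 1, ALKBH7 and ALKBH8 lay inside peaks of all 6 lists. Those of ALKBH2 and ALKBH4 lay inside peaks of 5 lists, and that of the distal ALKBH5 3UTR inside peaks of 4. The 125 nt covered in at least 4 lists after the ALKBH5 stop codon, chr17:18208429-18208553, held no GGAC and no DRACH on the transcript strand. Among called peaks of that length in the 6 lists, 44.3% held GGAC and 93.2% held DRACH. The whole called peaks at this place held neither motif in hPSC, DE and PP. Those that began nearer the stop codon held 1 DRACH each in hILO and A5-KO PP, and 3 DRACH and 1 GGAC in WT PP. By contrast, the 250 nt so covered in ALKBH5 exon 1 held 4 GGAC sites, a motif found in 71.6% of peaks of that length. Such matches are a description of letters, and no single base was measured.

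Peaks were found on 8 members at the hPSC stage, 7 members each at DE and PP, and 6 at hILO, while WT PP had them on 8 and A5-KO PP on all 9. The methods of the study give p below 1e-05 as the threshold. With it, the members with a peak were 7, 5, 7 and 5 along the stages. They were 6 for WT PP and 5 for A5-KO PP. Member peaks were then 10 in place of 13 at the hPSC stage, 7 in place of 12 at DE and 10 in place of 17 at PP. They were 8 in place of 9 at hILO, 9 in place of 24 for WT PP and 12 in place of 24 for A5-KO PP. Of all peaks, 62.4%, 62.7%, 61.8% and 94.3% along the stages had such a p, with 54.3% for WT PP and 54.1% for A5-KO PP. Where the deposited identifier named the member alone, the members with a peak were 6, 7, 7 and 6 along the stages and 7 in each list of batch 2, so that hPSC no longer had more than DE. Among all protein-coding genes, 60.2% had a peak at the hPSC stage, 57.0% at DE, 52.2% at PP and 57.7% at hILO, with 62.8% for WT PP and 69.7% for A5-KO PP. ALKBH1, ALKBH2, ALKBH4, ALKBH5, ALKBH7 and ALKBH8 had a peak in each of the 6 lists, as did 37.7% of protein-coding genes. Of protein-coding genes with a peak in any list, 46.1% did. The number of member peaks was 13, 12, 17 and 9 from hPSC to hILO and 24 in each list of batch 2. ALKBH5 had 3 peaks in each list of batch 1, ALKBH4 ranged from 1 to 4, and FTO had none in hPSC and hILO.

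**Figure D1:**
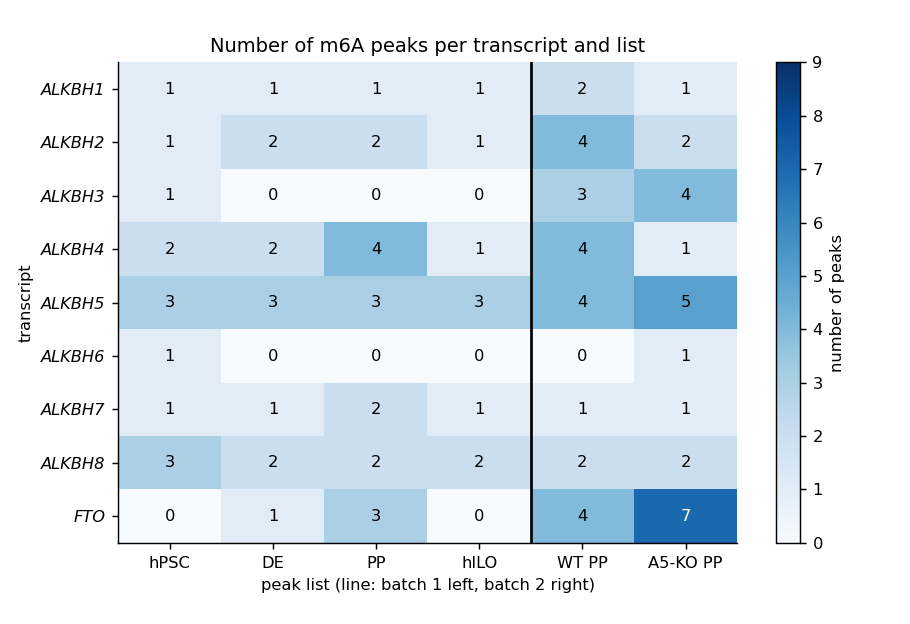
Number of m6A peaks (numbers and colour) on each of 9 transcripts (rows) in each of 6 lists (columns), with a line between batch 1 and batch 2. ALKBH5 has 3 peaks in every batch 1 list, ALKBH3 and ALKBH6 have none in DE, PP and hILO, and FTO reaches 7 in A5-KO PP.

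The lists differed in depth, which bears on these counts. Input reads inside peaks ranged from 6987612 in PP to 28463998 in hILO, and IP reads from 30723097 in DE to 79822815 in hPSC. The median member peak had 94, 101.5, 62 and 211 input reads along the 4 stages, then 60.5 (WT PP) and 19.5 (A5-KO PP). Over all peaks the medians were 66, 103, 87, 302, 80 and 33. The populations carried peaks on the transcripts that name them, namely 4 of 5 pluripotency markers at the hPSC stage, 5 of 5 endoderm markers at DE, 5 of 6 progenitor markers at PP and 6 of 6 of them in both lists of batch 2, and 5 of 5 islet markers at hILO. SOX2 had no peak in any list. Markers of other stages were marked too, with 4 of 5 pluripotency markers at DE (4852 input reads), 5 of 6 progenitor markers at hILO and 4 of 5 endoderm markers in each list of batch 2. Mesenchymal markers had peaks in each list, 3 or 4 of 5, and the intestinal markers CDX2 and VIL1 both had peaks in PP, hILO, WT PP and A5-KO PP (345, 18296, 3711 and 1489 input reads) but not in hPSC or DE. Of 5 hepatic markers, 5 had peaks in hILO, 4 in WT PP, 3 in A5-KO PP and 1 in DE, with 47436, 16018, 388 and 567 input reads, and 0 had peaks in hPSC and PP.

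Of the 99 peaks, 86 could be placed on the longest coding isoform of the member, by their midpoints. There were 45 in the 3UTR, 38 in the coding sequence and 3 in the 5UTR. Within the lists, the 3UTR held 45.5% (DE) to 66.7% (hILO) of placed member peaks, against 37.6% to 44.8% of all placed peaks. The coding sequence held 33.3% (hILO) to 50%, against 48.7% to 56.1%. Of the 86 peaks, 28 lay within 200 nt of the stop codon. By list, 27.3% (DE) to 55.6% (hILO) of placed member peaks lay this near the stop codon, against 18.2% to 21.9% over all placed peaks. The last exon held 58 of the 86 peaks, or 62.5% to 77.8% by list, against 52.9% to 62.1% of all placed peaks. Exons over 400 nt held 72 of the 86, while 12.6% of exons on such isoforms are that long. Within each list, 70% to 100% of placed member peaks lay in exons over 400 nt, against 72.3% to 80.3% of all placed peaks.

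GGAC occurred in 63 of the 99 peaks and DRACH in 85. By list, GGAC was in 41.2% (PP) to 92.3% (hPSC) of member peaks, against 51.3% to 57.7% of all peaks, and DRACH in 64.7% (PP) to 100% (hILO), against 89.0% to 92.9%. Both shares were below those of all peaks in PP and in A5-KO PP, the latter with 45.8% and 83.3%. Along the isoforms of the 9 members, GGAC stood at 6.57 sites per kb inside peaks and 3.38 per kb outside, and DRACH at 22.2 and 17.9. ALKBH5 had 9.67 GGAC sites per kb inside its peaks and 5.44 outside, but its DRACH density was alike, at 12.3 and 12.9 per kb. ALKBH1 went the other way, with 34.8 against 19.3 DRACH sites per kb and 3.48 against 4.45 GGAC sites.

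ALKBH5 (chromosome 17, 18183078 to 18209954, plus strand) encodes the nuclear m6A demethylase that was removed in A5-KO cells. Its transcript of 3159 nt has a first exon of 1186 nt that holds most of its coding sequence, and a last exon of 1736 nt. The 3 places with a peak in every list were the coding part of exon 1, with midpoints at -1038 to -901 nt from the end of the stop codon, a region just after the stop codon, and the last stretch of the 3UTR. In exon 1 the peak spanned 18184315 to 18184639 in hPSC and 18184390 to 18184639 in PP and hILO. A long noncoding gene on the opposite strand, ENSG00000266677, overlaps it. The methods give a strand setting (FR) for alignment. How the strand was used in counting is not given in the sources used here, so whether reads of the 2 genes were kept apart is not known.

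**Figure D2:**
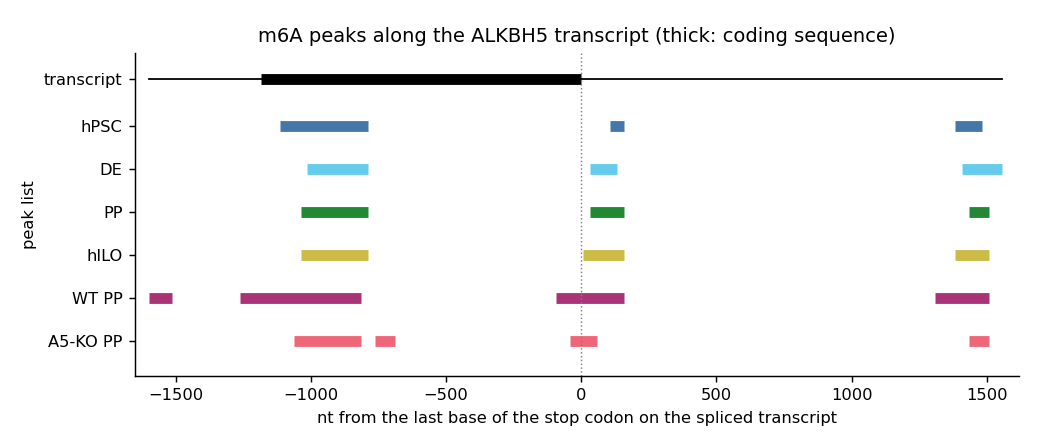
Peaks on the spliced ALKBH5 transcript in the 6 lists (coloured bars, 1 row for each list), by distance in nt from the last base of the stop codon, with the coding sequence as a thick line. Exon 1, the region after the stop codon and the end of the 3UTR carry a peak in all 6 lists, and parts of peaks off this isoform are not drawn.

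The exon 1 peak had 5196 IP and 524 input reads in hPSC, 1265 and 560 in DE, 1260 and 220 in PP, and 1475 and 458 in hILO. Along the stages, its log2 enrichment was 1.66 ± 0.066, 0.92 ± 0.073, 0.76 ± 0.11 and 1.16 ± 0.077. As deposited, hPSC had the highest value, and DE and PP differed by less than their counting error allows to be told apart (a difference of -0.16, interval -0.41 to 0.090). This order was not kept by log2 IP/input ratios of the counts, centred on the median of each list, which were 0.015, -0.18, 0.32 and 0.27, so that the difference from hPSC to PP turned from -0.89 to 0.30 and that from hPSC to DE went from -0.73 to -0.19.

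The peak after the stop codon had 852 IP and 137 input reads in hPSC, 4994 and 2099 in DE, 314 and 53 in PP, and 472 and 79 in hILO. Its log2 enrichment was 1.26 ± 0.13, 1.71 ± 0.038, 2.01 ± 0.21 and 2.65 ± 0.17 from hPSC to hILO. The order followed differentiation, and hILO exceeded hPSC by 1.39 (interval 0.96 to 1.82). Neighbouring stages differed by 0.45 (0.18 to 0.72), 0.30 (-0.12 to 0.73) and 0.64 (0.10 to 1.18), so the DE and PP values were not distinguishable. The peak was 50 nt long in hPSC and 100 to 150 nt in the other stages, so that the reads do not come from the same stretch. The DE peak carried 2099 input reads per 100 nt, against 42.4 in PP and 52.7 in hILO. In such bulk samples fewer cells of a type and less RNA per cell cannot be told apart.

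The distal 3UTR peak had 95 IP and 2 input reads in hPSC, 206 and 94 in DE, 315 and 109 in PP, and 1402 and 749 in hILO. Its log2 enrichment was 3.54 ± 0.92, 1.65 ± 0.18, 1.48 ± 0.16 and 1.09 ± 0.065. The hPSC value rests on 2 input reads, and without it the remaining values ran from 1.65 to 1.09, a difference of -0.56 from DE to hILO (interval -0.94 to -0.19) that was -0.28 by the centred ratio of counts.

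The 3 ALKBH5 peaks of a list share its scaling, so their read ratios can be set against each other without it. The IP/input ratio after the stop codon, relative to that of exon 1, was -0.68 (interval -0.97 to -0.39) on the log2 scale at the hPSC stage, 0.075 (-0.086 to 0.24) at DE, 0.040 (-0.43 to 0.51) at PP and 0.89 (0.51 to 1.26) at hILO. By the deposited enrichment the same differences were -0.40, 0.78, 1.25 and 1.49. On both measures exon 1 was the higher in hPSC and the stop codon region in hILO, while in DE and PP the interval of the read ratio spanned 0 and the deposited value was higher after the stop codon. The distal peak relative to the one after the stop codon went from 2.62 (0.79 to 4.45) at the hPSC stage to -0.12 (-0.48 to 0.24) at DE, -1.03 (-1.55 to -0.51) at PP and -1.67 (-2.03 to -1.30) at hILO. By the deposited enrichment these were 2.28, -0.056, -0.53 and -1.56, of the same sign and nearer to 0. Relative to exon 1 the distal peak changed sign with the measure at DE (-0.047 by reads, 0.73 as deposited) and at PP (-0.99 and 0.72). GC content differed between these peaks, at 64.8% to 69.8% in exon 1, 24.0% to 39.3% after the stop codon and 32.0% to 40.8% in the distal 3UTR, and its part in the ratios was not tested.

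**Figure D3:**
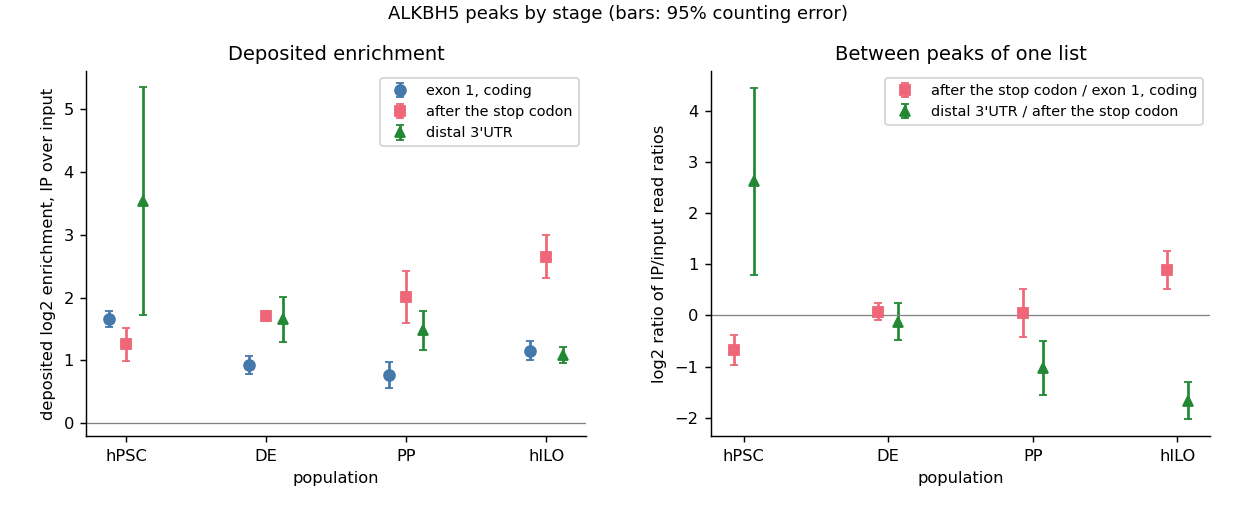
Left, deposited log2 enrichment of the 3 ALKBH5 peaks in the 4 batch 1 populations; right, log2 ratio between the IP/input read ratios of 2 peaks of the same list. Points are pooled values and bars 95% counting errors; the peak after the stop codon runs from 1.26 in hPSC to 2.65 in hILO, and its ratio to exon 1 from -0.68 to 0.89.

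When log2 ratios of the pooled counts, centred on the median of each list, replaced the deposited enrichment, the peak after the stop codon still differed by 1.82 between hPSC and hILO. The exon 1 peak did not keep its order, since the difference from hPSC to hILO was -0.50 as deposited and 0.26 from counts. Its differences from DE to PP and from PP to hILO also changed sign, to 0.49 and -0.041.

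In batch 2 the 3 ALKBH5 places could not be compared in enrichment, since almost no input read was present there. In WT PP the exon 1, stop codon and distal peaks had 285, 42 and 51 IP reads with 1, 0 and 0 input reads. In A5-KO PP they had 54, 87 and 156 IP reads with 0 input reads in each. An additional peak in exon 1, 18184665 to 18184739, had 116 IP reads and 1 input read in A5-KO PP. IP reads in exon 1 were thus fewer in A5-KO PP and those in the 3UTR more numerous, in peaks of different length. Peaks on ALKBH5 remained in the edited cells, and as indels need not remove a transcript, these peaks do not check the genotype label. The single place with more than 1 input read lay upstream of the coding sequence, at 18183178 to 18183914, with 458 IP and 288 input reads in WT PP. In A5-KO PP a peak of 50 nt within it had 179 IP and 0 input reads.

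A peak without input reads carried a deposited log2 enrichment that was either low or very high. In WT PP, 4997 peaks had 0 input reads, and 33.8% of these were below 2, 66.1% above 6 and 3 peaks in between. In A5-KO PP there were 13568, with 26.8% below 2, 73.2% above 6 and 3 in between. Of the 13 such member peaks, 4 were below 2 and 9 above 6. The ALKBH5 stop codon peak stood at 0.73 in WT PP but at 10.69 in A5-KO PP, although neither list had an input read there and the IP reads were 42 and 87. These enrichments are therefore given as deposited values, with no fold change read from them.

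FTO (chromosome 16, 53701692 to 54158512, plus strand), the other m6A demethylase of mRNA, had 15 peaks in all, against 21 on ALKBH5, and none at a place marked in all 6 lists. Its number was the lower in hPSC, DE and hILO, equal in PP and WT PP, and the higher in A5-KO PP. No FTO peak was listed in hPSC or hILO. DE had 1 peak, at 53701742 to 53704057 near the 5′ end and off the longest isoform by its midpoint, with 45 IP and 9 input reads and a log2 enrichment of 2.28 ± 0.51. PP had 3, over exons 2 and 3 in the coding sequence, with 247, 261 and 126 IP reads and 86, 97 and 9 input reads. Their enrichments were 1.54 ± 0.18, 1.41 ± 0.17 and 3.67 ± 0.49.

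In batch 2, FTO had 4 peaks in the wild-type list and 7 in that of A5-KO PP. The coding peak over exon 3 was found in both, with 102 IP and 69 input reads in WT PP and 33 and 35 in A5-KO PP, and its enrichment was 2.67 and 0.87, a difference of -1.79 (interval -2.60 to -0.98) that was -1.05 by the centred ratio of counts. The other 3 WT PP peaks lay near the start of a 3UTR of 10026 nt, where no batch 1 list had a peak. One of these, 54112273 to 54112397, had 254 IP and 463 input reads in WT PP and 246 and 25 in A5-KO PP. Its enrichment was 1.37 ± 0.11 and 5.90 ± 0.30, while the IP reads were nearly equal and the input reads differed. A5-KO PP alone had peaks at 53911391 to 53923061 and 53934077 to 53935663, off the longest isoform, and at the 3′ end, 54121848 to 54152118, where 590 input reads exceeded 325 IP reads.

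ALKBH2 (chromosome 12, 109088188 to 109093631, minus strand), a repair enzyme for alkylated bases of DNA, was marked near its start codon. In exon 2, across the end of the 5UTR and the first coding bases, the longest peak of each batch 1 list had 701 IP and 47 input reads in hPSC, 46 and 12 in DE, 208 and 44 in PP and 210 and 66 in hILO. The log2 enrichments were 2.31 ± 0.22, 1.88 ± 0.46, 1.37 ± 0.24 and 1.68 ± 0.20. Differences between neighbouring stages, -0.43, -0.51 and 0.30, had counting intervals that included 0.

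The 3′ end of ALKBH2 differed between the lists of batch 2. In WT PP, peaks at 109088413 to 109089644 and 109088188 to 109088262 had 28395 and 48955 IP reads and 16207 and 14961 input reads, the highest input of any member peak. In A5-KO PP a peak of 50 nt in this region had 35 IP and 0 input reads. The batch 1 lists had no peak there. The largest input of a batch 1 member peak was 3039 reads, in hILO.

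ALKBH3 (chromosome 11, 43880811 to 43920274, plus strand), which repairs alkylated DNA and RNA, had peaks that may not be its own. Each of its 8 peaks overlapped SEC14L1P1, a processed pseudogene on the same strand within an ALKBH3 intron. In 6 of them no base lay on an ALKBH3 exon, and in the other two 89 nt did, on exon 8. In hPSC the peak at 43897726 to 43897825 had 864 IP and 150 input reads and a log2 enrichment of 1.16 ± 0.13. In WT PP the strongest, 43898226 to 43898625, had 6199 and 650, and in A5-KO PP 43898451 to 43898700 had 4160 and 455. Their enrichments were 5.47 ± 0.059 and 5.62 ± 0.071, a difference of 0.14 (interval -0.038 to 0.33) that was -0.47 by the centred ratio of counts. A pseudogene of this kind shares sequence with its parent gene, so the source of these reads is uncertain.

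ALKBH1 (chromosome 14, 77672404 to 77708023, minus strand), a demethylase of tRNA, carried a peak across its stop codon in all 6 lists, within 77673479 to 77674003 in the last exon of 1838 nt. IP and input reads were 3866 and 382 in hPSC, 2175 and 666 in DE, 854 and 140 in PP, and 341 and 211 in hILO. The log2 enrichment was 1.81 ± 0.077, 2.15 ± 0.064, 2.14 ± 0.13 and 0.82 ± 0.13. The hILO value was the lowest and stood 1.32 below PP (difference -1.32, interval -1.68 to -0.97), and -1.12 by the ratio of counts. In WT PP the peak had 8231 IP and 2125 input reads, and in A5-KO PP 92 and 26. The deposited enrichment was 4.42 ± 0.035 and 1.35 ± 0.32, a difference of -3.08 (interval -3.70 to -2.45), which was -0.57 by the ratio of counts.

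ALKBH8 (chromosome 11, 107502727 to 107565742, minus strand), which modifies the wobble uridine of tRNA, had its main peaks in a last exon of 2489 nt. The coding peak before the stop codon had 1241 IP and 80 input reads in hPSC, 173 and 53 in DE, 259 and 87 in PP, and 1245 and 610 in hILO. Its log2 enrichment was 2.51 ± 0.17, 2.09 ± 0.23, 1.02 ± 0.18 and 1.20 ± 0.071. It was lower in PP than in DE by more than the counting error (difference -1.07, interval -1.64 to -0.51), and PP and hILO were not distinguishable (0.18, -0.20 to 0.55).

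A second ALKBH8 peak lay across the stop codon and the start of the 3UTR, without a counterpart in DE. Its reads were 538 IP and 56 input in hPSC, 274 and 109 in PP, and 102 and 14 in hILO. The log2 enrichment was 1.81 ± 0.20, 1.31 ± 0.16 and 2.97 ± 0.40, with hILO above PP by 1.66 (interval 0.80 to 2.52). The PP to hILO differences of the neighbouring peaks were thus unlike in size, 0.18 in the coding sequence and 1.66 beyond it, in a comparison where the latter had 14 input reads in hILO. In batch 2 the coding peak had 5096 IP and 895 input reads in WT PP and 154 and 35 in A5-KO PP. Its enrichment was 5.56 ± 0.052 and 4.69 ± 0.27, a difference of -0.87 (interval -1.41 to -0.33). The 3UTR peak had 1530 and 223 reads in WT PP and 77 and 103 in A5-KO PP, with enrichments of 5.74 ± 0.10 and 2.14 ± 0.22, a difference of -3.60 (interval -4.08 to -3.13).

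**Figure D4:**
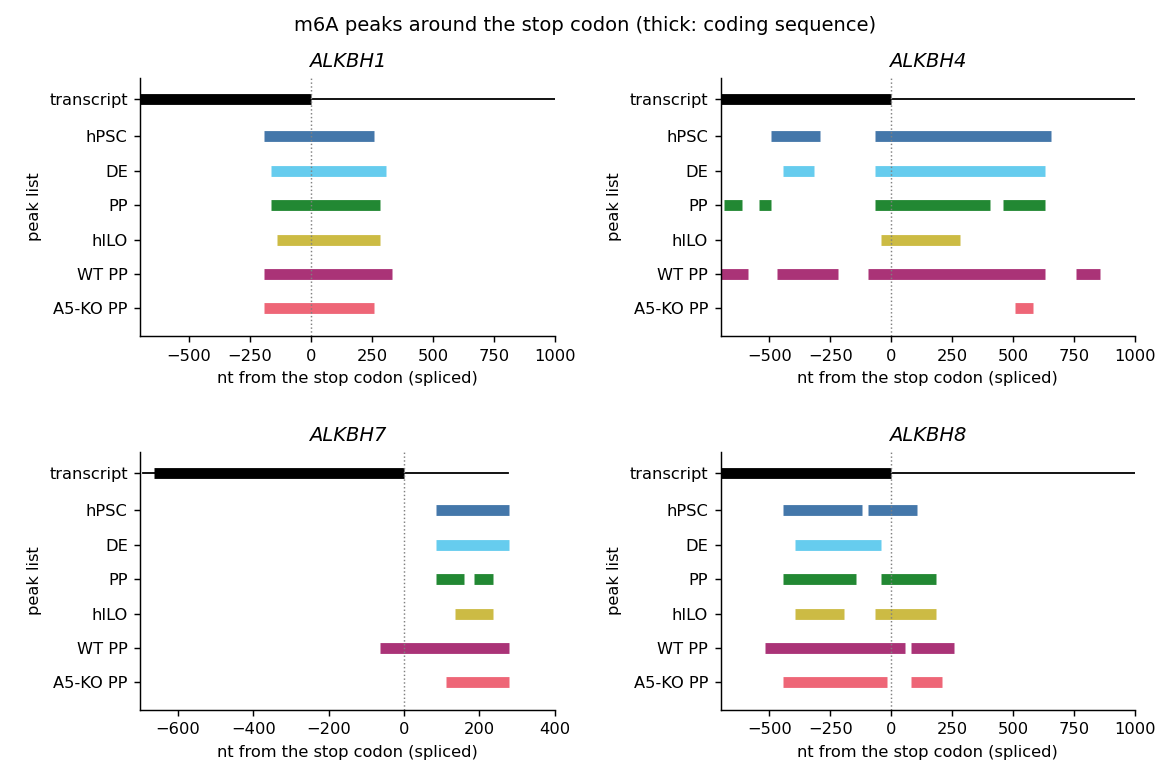
Peaks around the stop codons of ALKBH1, ALKBH4, ALKBH7 and ALKBH8 in the 6 lists (coloured bars, 1 row for each list), by distance in nt from the last base of the stop codon on the spliced transcript, with the coding sequence as a thick line. ALKBH1 carries 1 peak across its stop codon in each list, while the A5-KO PP peak of ALKBH4 is 75 nt long and each other list has a longer peak that begins before the stop codon.

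ALKBH4 (chromosome 7, 102456238 to 102464863, minus strand), which acts on methylated actin, had the strongest member peak of batch 1 by reads. Its 3UTR peak had 4977 IP and 290 input reads in hPSC, 1657 and 412 in DE, 112 and 18 in the longer of 2 peaks in PP, and 12449 and 3039 in hILO. The log2 enrichment was 2.60 ± 0.087, 2.33 ± 0.079, 1.40 ± 0.36 and 1.96 ± 0.029. PP was lower than DE (difference -0.92, interval -1.65 to -0.20, and -0.28 by the ratio of counts), where the PP value rests on 18 input reads. The shorter PP peak, of 175 nt, had more reads, 127 IP and 33 input, and stood at 1.46 ± 0.28. In WT PP the peak of 725 nt had 61 IP and 0 input reads, and in A5-KO PP the 75 nt peak had 140 and 12. ORAI2 lies on the opposite strand and overlapped part of the 3′ end of these peaks in 5 lists, by 13 to 88 nt. A second place in the coding sequence, within 102457613 to 102457887, was marked in hPSC, DE and WT PP, at 1.05 ± 0.12, 1.03 ± 0.16 and 1.91 ± 0.22. Directly beside it, PP had a coding peak at 102457888 to 102457937, with 908 IP and 132 input reads and 1.86 ± 0.13. Another coding place, within 102459603 to 102464714, was marked in PP (189 IP and 37 input reads) and WT PP (40 and 0).

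ALKBH7 (chromosome 19, 6372794 to 6375250, plus strand), a mitochondrial member, ends in a 3UTR of 277 nt where all of its peaks had their midpoints. Reads were 1330 IP and 94 input in hPSC, 817 and 261 in DE, 239 and 31 in the larger of 2 peaks in PP, and 303 and 89 in hILO. The log2 enrichment was 2.24 ± 0.15, 1.87 ± 0.10, 1.84 ± 0.27 and 1.62 ± 0.17. The hPSC value exceeded DE by 0.37 (difference -0.37, interval -0.73 to -0.0082, and -0.22 by the centred ratio of counts). The later values lay within each other's counting error. In batch 2 it was 0.86 ± 0.27 in WT PP, from 146 IP and 34 input reads, and 2.29 ± 0.17 in A5-KO PP, from 167 and 120. The deposited difference of 1.44 (interval 0.81 to 2.07) was -2.00 by the ratio of counts. PSPN overlaps the 3UTR on the opposite strand and shared 50 to 103 nt with a peak in each list.

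ALKBH6 (chromosome 19, 36009120 to 36014239, minus strand), the least studied member, had 2 peaks in all. In hPSC a peak at 36013284 to 36013524 had 374 IP and 62 input reads and a log2 enrichment of 1.02 ± 0.20. In A5-KO PP a peak at 36009248 to 36009372 had 520 and 227, at 1.91 ± 0.11. Both carry bases of ENSG00000248101, a gene on the same strand, so their source is uncertain.

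Peak sharing between stages was set beside that of all peaks. Sharing meant that peaks of the earlier or wild-type list covered over 50% of the exonic bases of a peak. Of the member peaks, 8 of 12 in DE were shared with hPSC, 10 of 17 in PP with DE, 9 of 9 in hILO with PP, and 15 of 24 in A5-KO PP with WT PP. Over all peaks the shares were 64.7%, 57.0%, 45.6% and 46.8%. Counted from the earlier or wild-type list, the member shares were 61.5%, 66.7%, 58.8% and 33.3% in the same order. With reciprocal overlap they were 58.3%, 35.3%, 88.9% and 29.2%. No share of all peaks is given for either of these rules, so these values have no background beside them.

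At shared peaks of batch 1, few enrichments differed by 1 or more on the log2 scale. None of 7 pairs did so from hPSC to DE, where 4.39% of all pairs were higher and 6.81% lower. Of 8 pairs from DE to PP, 1 was lower (ALKBH8), against 8.21% of all pairs lower and 7.39% higher. Of 9 pairs from PP to hILO, 1 was higher (ALKBH8) and 1 lower (ALKBH1), against 4.06% and 13.3% of all pairs. The medians over member pairs were -0.37, -0.17 and 0.30, against -0.096, -0.11 and -0.12 over all pairs. By the centred ratio of counts the member medians were -0.15, -0.11 and 0.23.

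From WT PP to A5-KO PP, 5 of 14 member pairs were higher by at least 1 and 6 lower, against 38.4% and 28.3% of all pairs. The median was -0.36 over members and 0.27 over all pairs. Both ends of the member range, -7.56 and 9.96, were ALKBH5 pairs with at most 1 input read in either list (exon 1 and the stop codon region), from which no fold is read, and by the centred ratio of counts they were -1.78 and 0.63. The member median was -0.61 by the centred ratio of counts, -0.87 with at least 10 input reads in both peaks, -1.73 with at least 50 and -1.79 with reciprocal overlap. In 6 of the 14 pairs a peak had at most 1 input read, and these were 3 of the higher and 3 of the lower pairs, so the counts over the 14 rest in part on them. Of the 8 others, which ran from -3.60 to 4.52, 2 were higher as deposited (FTO 3UTR and ALKBH7), 3 lower (ALKBH1, the ALKBH8 3UTR and FTO exon 3) and 3 within 1. By the centred ratio of counts ALKBH7 turned to -2.00 and ALKBH1 was -0.57, which left 1 higher (FTO 3UTR, 3.71), 3 lower and 4 within 1. Input reads at shared peaks were lower in A5-KO PP over all pairs, with a median log2 ratio of -0.60 and quartiles of -3.23 and 1.29, and IP reads were lower by a similar amount, with a median of -0.57. The member pairs with the widest gaps in input were ALKBH2 at its 3′ end (-14.0), ALKBH5 upstream of its coding sequence (-8.17) and ALKBH1 (-6.30). Marker peaks of most sets also had fewer input reads in A5-KO PP than in WT PP. They numbered 16018 and 388 for the hepatic set, 26314 and 15532 for progenitors, 11237 and 4856 for endoderm, 3711 and 1489 for the intestinal set, 1023 and 447 for the mesenchymal set and 904 and 534 for pluripotency, while the islet set had 653 and 2348. The part of these gaps in the differences was not tested.

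Other genes of the pathway were described in the same way. All 9 m6A writers (METTL3, METTL14, WTAP, VIRMA, ZC3H13, CBLL1, RBM15, RBM15B and METTL16), all 5 YTH readers and all 3 TET dioxygenases, which oxidise 5-methylcytosine in DNA, had a peak in each of the 6 lists, against 37.7% of protein-coding genes. The share was 46.1% among protein-coding genes with a peak in any list. The writers had 33 to 49 peaks per list and the readers 20 to 25. Of 10 genes that work with AlkB enzymes or reverse alkylation directly, 6 to 8 had a peak in a list, near the 52.2% to 69.7% of protein-coding genes that did. TRMT112, the partner of ALKBH8, had none in hPSC, DE, PP and both lists of batch 2. Median differences for the writers were -0.051, -0.12 and -0.26 along the stages and -0.040 from WT PP to A5-KO PP. In that last comparison 8 of 29 writer pairs were higher by at least 1 and 10 lower, 6 of 16 reader pairs were higher and 5 lower, and 3 of 17 TET pairs were higher and 8 lower. Of 10 pairs of the partner genes, 7 were higher and 0 lower, with a median of 1.76. Over all pairs 38.4% were higher and 28.3% lower. A peak with 0 input reads stood in 7 of the writer pairs, 3 of the reader pairs, 4 of the TET pairs and 2 of the partner pairs.

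The genes most like ALKBH5 in enrichment were sought by the root mean square difference, over the 6 lists, of the deposited log2 enrichment of the peak with most IP reads. Of 7553 protein-coding genes with a peak in every list, BRAP (0.38), ZMAT1 (0.41) and CLUH (0.41) stood nearest, and the median gene at 2.88. Each of them, like ALKBH5, had 0 input reads at that peak in A5-KO PP and a deposited value there of 10.53 to 11.05, from which no fold is read. The ALKBH5 peak with most IP reads also stood at different places, in exon 1, after the stop codon in DE and upstream in batch 2. The 3 names follow from the rule alone and describe no common site. FTO was not compared in this way, since it had no peak in 2 lists.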

How the data were processed

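m6A-seq was performed on 24 libraries. Per the methods, the authors used fastp for trimming, HISAT2 for alignment to GRCh38 with 1 alignment kept for a read, and exomePeak2 for peak calling. Per the labels, HOMER was also used. For each peak the authors deposited pooled IP and input read counts, a log2 enrichment, and a p-value with its adjusted value, below 0.05 throughout. Whether a pooled count is a sum or a mean is not given in the sources used here, and counting errors take sums. Depth is given by the reads inside peaks.

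Peak spans were reduced to GENCODE 44 exons (0 peaks ran past a chromosome end, and 99.1% of 228472 had exonic bases). Each shared peak was paired with the peak that overlapped it by most bases, and a partner was used once. Placement used the longest transcript among protein-coding isoforms; the isoform with the longest coding sequence, tried first, and a filter on peaks outside the member's exons were alternatives chosen after seeing the data. Counting errors used 0.5 added reads, and count ratios a pseudocount of 1. Sequences were read from the GRCh38 reference. All 9 members were described. Members and gene lists were chosen with earlier results of these data known. Scripts ran in Python 3.11.15 with numpy 2.4.6 and pandas 2.3.3 and were tested on simulated data.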

Additional observations from a re-analysis of the deposited data

How the results depend on the processing

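No paired analysis was possible because every deposited value already joins both libraries of its group, so no replicate could be blocked or left out, and no other scaling of libraries could be tried. Of 148 alternative values for the counts, shares and medians, 26 were classed as moved and 122 were not. The 122 were not all close to the reported value. With at least 10 input reads, the median from WT PP to A5-KO PP went from -0.36 to -0.87 and the WT PP peaks from 24 to 17. By the centred ratio of counts the median from hPSC to DE went from -0.37 to -0.15. Requiring p below 1e-05 left 7 member peaks in DE, 10 in PP and 9 in WT PP, and 12 on 5 members in A5-KO PP. Requiring p below 1e-10 left 6 peaks in hPSC, 4 on 4 members in DE, 2 on 2 members in PP, 5 on 3 in hILO, and, in batch 2, 8 on 5 (WT PP) and 5 on 3 (A5-KO PP). A deposited enrichment of at least 3-fold (linear) left 7 peaks in PP and 5 in hILO, and at least 10 input reads left 14 in A5-KO PP. On the isoform with the longest coding sequence, 6 peaks of A5-KO PP lay in the 3UTR instead of 10. Reciprocal overlap lowered the shared peaks to 35.3% from DE to PP and 29.2% from WT PP to A5-KO PP. Counted from the earlier list the shares were 58.8% for PP to hILO and 33.3% for WT PP to A5-KO PP. No share of all peaks is given for these rules. The median difference from WT PP to A5-KO PP was -1.73 with at least 50 input reads in both peaks and -1.79 with reciprocal overlap.

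Of 38 single differences, the ratio of counts centred per list turned 10. From hPSC to DE the ALKBH4 coding peak became 0.64. From DE to PP, ALKBH1 became 0.049, ALKBH7 0.42 and ALKBH5 exon 1 0.49. From PP to hILO, the distal ALKBH5 3UTR became 0.17 and exon 1 -0.041. From WT PP to A5-KO PP, the ALKBH3 peaks became -0.47 and -0.64, the ALKBH2 3′ peak 3.96 and ALKBH7 -2.00. The cause was not tested.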
